A study of Mus musculus with 9 samples.

Results

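The cell cycle and proliferation genes described here are 41 genes picked by name, and all 41 had a row among the 52636 genes of the deposited mouse kidney RNA-seq tables. The series holds 9 kidney libraries in 3 genotypes with 3 libraries each: wild type (WT) and knock-in mice labelled NF-κB1C59A and NF-κB1C59S, called C59A and C59S below. Both alleles replace a cysteine codon in Nfkb1, a DNA-binding subunit gene of NF-κB, and both carry a PGK-neo selection cassette in a nearby intron that WT does not carry. They were made in C57BL/6NTac-derived ES cells, and neither the number of ES cell clones behind each line nor zygosity is among the labels. The genotype labels call C59A activated and C59S inactivated, whereas the series' design text gives reduced DNA binding for the codon listed first, GCT, and increased binding for TCA, and names alanine for both. No direction of NF-κB activity is therefore assumed for either allele. The labels give no treatment, age or sex, and do not say that replicates are separate animals, so each p-value measures the spread between these libraries.

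Cells enter the cycle when D-type cyclins with their kinases, followed by E-type cyclins, inactivate the RB proteins and release E2F transcription factors. CDK inhibitors hold this step back. E2F targets such as the MCM helicase, the PCNA clamp and the nucleotide-making enzymes serve DNA replication, and a later wave of A- and B-type cyclins, Aurora and Polo kinases, kinesins and centromere proteins builds and resolves the spindle. Most cells of an adult kidney rest outside the cycle, and tubule cells re-enter it after injury. Transcripts of the late wave are therefore scarce in whole kidney, whereas D-type cyclins and CDK inhibitors are also made in resting cells.

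Many cell cycle promoters share short elements: the CCAAT box, read by NF-Y, the cell cycle homology region (CHR), read by the DREAM and MuvB complexes, and the E2F site. The 250 bases before the RefSeq start sites (GRCm38.p6) were available for 33 of the 41 members and were searched on both strands. CCAAT stood in 27 of the 33 (81.8%) against 37.5% of all 27025 genes with a window. A CHR core, TTTGAA or TTCGAA, stood in 12 (36.4% against 19.6%). The E2F forms TTTCCCGC, TTTGGCGC or TTTCGCGC stood in 4, Cdk1, Mcm5, Mcm6 and Mcm7 (12.1% against 1.78%), and the median GC content was 59.6% over members' windows and 52.4% over all windows. A match is a description of the letters and no evidence of binding.

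Ccnb2, Nusap1 and Ube2c are 3 late-cycle genes whose C59A and C59S libraries did not overlap, Ccnb2 and Nusap1 with the higher level in C59A and Ube2c with the higher level in C59S. Of all genes tested, 14.7% lay higher and 14.5% lower in C59A without overlap. The late-cycle members Cenpe, Cenpf and Kif20a did not overlap either, and the 3 genes shown were chosen after values were seen. The sequences shown run from 200 to 11 bases before the start. They lie at chr9:70421565-70421754 (minus strand) for Ccnb2, chr2:119618098-119618287 (plus strand) for Nusap1 and chr2:164769729-164769918 (plus strand) for Ube2c. Capitals mark CCAAT, its reverse ATTGG, and the CHR cores TTTGAA and TTCAAA.
Ccnb2: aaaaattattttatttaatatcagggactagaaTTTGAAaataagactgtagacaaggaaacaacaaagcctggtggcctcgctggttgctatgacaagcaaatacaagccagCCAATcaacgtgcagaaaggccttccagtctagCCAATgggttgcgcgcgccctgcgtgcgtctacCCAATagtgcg
Nusap1: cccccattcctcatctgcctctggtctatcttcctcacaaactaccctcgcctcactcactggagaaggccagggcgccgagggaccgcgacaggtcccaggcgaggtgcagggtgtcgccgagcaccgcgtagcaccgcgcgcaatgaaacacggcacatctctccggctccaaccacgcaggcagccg
Ube2c: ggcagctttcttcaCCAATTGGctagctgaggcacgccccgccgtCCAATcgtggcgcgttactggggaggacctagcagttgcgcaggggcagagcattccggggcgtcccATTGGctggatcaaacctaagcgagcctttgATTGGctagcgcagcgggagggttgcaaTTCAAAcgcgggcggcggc
In Ccnb2 the CCAAT boxes begin at -87, -54 and -21 and the CHR core at -167, counted from the start site. In Ube2c the CHR core begins at -29, and the overlapping CCAATTGG holds a box on each strand. None of the searched letters stood in the Nusap1 window. Ccnb2 and Ube2c thus hold the same kinds of element. None of the 3 genes passed between C59A and C59S in edgeR (adjusted p = 0.0567 for Ccnb2, 0.0688 for Nusap1 and 0.0879 for Ube2c). With the reads of a copy, Ccnb2-ps, added, the Ccnb2 difference was 0.15 (edgeR adjusted p = 0.690). Any part of these elements in the differences was not tested.

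Library totals ran from 16367403 to 25787659 reads. Mitochondrially encoded genes took 16.4% to 19.6% of reads in WT, 20.8% to 28.8% in C59A and 20.5% to 40.6% in C59S, where replicate 3 stood apart at 40.6%. Proximal tubule markers, 5 genes such as Slc34a1 and Lrp2, were all detected in every library. They summed to 10380 to 11790 CPM (read counts scaled to the size of each library) in WT, 8491 to 11150 CPM in C59A and 7145 to 8827 CPM in C59S, where no library overlapped WT. Slc34a1 held 6560 of the 11080 CPM in WT replicate 1. Single markers went both ways in C59A against WT. There, Slc22a6 was higher (0.91, edgeR adjusted p = 0.0312) and Slc5a2 lower (-1.44, adjusted p = 0.00412). In C59S, 2 of the 5 lay below WT without overlap, and none passed in edgeR. Distal convoluted tubule markers (3 genes) summed to 2108 to 3391 CPM in WT and lower in C59A (842 to 1357 CPM) and C59S (1351 to 1510 CPM), without overlap. This sum was mostly Slc12a3, with 2104 of 2184 CPM in WT replicate 1. In C59A, 2 of the 3 markers passed as lower in edgeR. In C59S only Slc12a3 lay below WT without overlap (edgeR adjusted p = 0.145). Pvalb differed from WT by 0.0034 on the log2 scale in C59S, and Trpm6 overlapped. Thick ascending limb and collecting duct sums overlapped WT in both. The C59A libraries differ from the others in sex-linked reads. Xist reached at most 0.725 CPM in any C59A library and at least 816 CPM in every other one, and Ddx3y, a Y-linked gene, stood at 43.2 to 46.9 CPM in C59A but at no more than 0.810 CPM outside it. For every C59A result above and below, the allele and the presence of Y-linked reads cannot be told apart. In whole tissue, fewer cells of a type and less RNA per cell cannot be told apart either.

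Levels of different genes are compared only as the authors' deposited FPKM, which divides reads by gene length. Mean FPKM over the 9 libraries ran from 11.1 for Pcna down to 0.0527 for Bub1, a ratio of 211, and 15 members reached 1 while 26 did not. Above Ccnd2 (1.38 FPKM) stood Pcna, the sliding clamp, Cdkn1b (9.43 FPKM), Ccnd3 (8.04 FPKM), Ccnd1 (7.97 FPKM), Cdkn2c (5.30 FPKM), Mcm7 (4.76 FPKM), Mcm6, Tyms, Plk1 and Mcm3. The classical proliferation markers were low, with mean FPKM values of 0.433 for Mki67, 0.269 for Top2a and 0.244 for Cdk1. Among the A- and B-type cyclins, Ccnb2 was the highest at 1.04 FPKM, while Ccnb1 stood at 0.0848 FPKM. Ccnb1 (2 to 13 reads a library) and Bub1 (2 to 7 reads) were too low for the test, which left 39 members among 17114 genes tested.

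**Figure D1:**
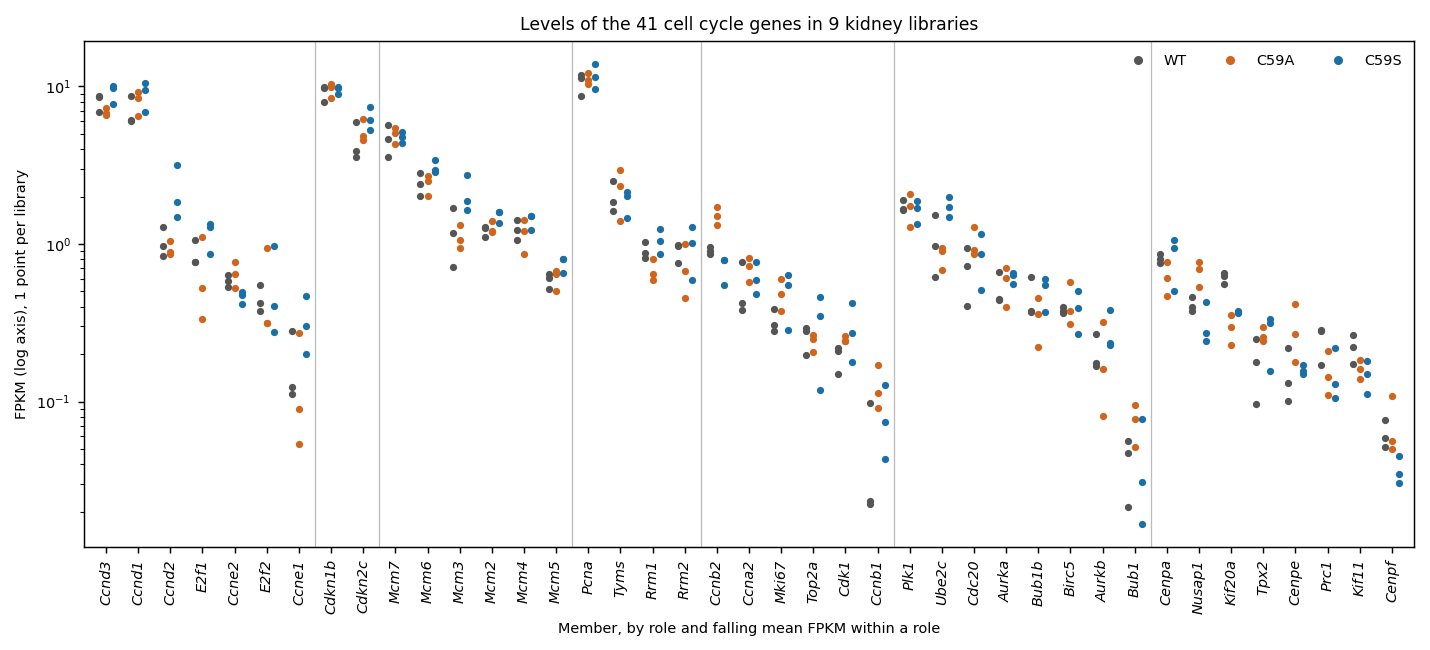
Level of each of the 41 members in the 9 libraries as deposited FPKM on a log axis, 1 point a library, grouped by role and ordered by mean FPKM within a role. Ccnd1, Ccnd3, the CDK inhibitors, Pcna and Mcm7 stand above 1 FPKM in every library, most mitosis genes stand below 1 FPKM, and all 3 C59S points of Ccnd2 lie above its WT and C59A points.

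C59A kidneys were compared with WT to see how the first allele relates to these genes. No member passed an adjusted p of 0.05 in edgeR's quasi-likelihood test, in either direction, where 3.24% of all tested genes passed as higher and 2.46% as lower. At an unadjusted p under 0.05 there were 2 members higher (Ccnb2, Cenpe) and 2 lower (Kif20a, Rrm1), 4 of 39 against 21% of all genes. The median member difference was 0.038 on the log2 scale (21 above 0, 18 below) and -0.020 over all genes. Kif20a had the smallest p. It was called by DESeq2 (adjusted p = 0.0234; 9.67% of all genes called) and by limma-voom with quality weights (adjusted p = 0.0445; 5.99% called), each as the sole member. The 3 C59A libraries lay above all WT libraries for 3 members (Ccnb2, Cdk1, Nusap1; 12.6% of all genes) and below them for 2 (Kif20a, Rrm1; 12% of all genes), shares under the background.

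The second allele gave differences that were more often positive. Against WT, C59S had 30 members above 0 and 9 below, with a median of 0.19 on the log2 scale against 0.0095 over all genes, but edgeR without pairing called no member, and 0% of all genes in either direction. The paired fit of these 6 libraries called Ccnd2 as higher (adjusted p = 0.0363), beside 1.48% of all genes. No label pairs these libraries: same replicate numbers were matched because their deviations correlated in these same data. At an unadjusted p under 0.05 there were 4 members higher (Ccnd2, Mcm3, Cdkn2c, Ube2c) and 1 lower (Kif20a), 5 of 39 against 18.1% of all genes. DESeq2, which gave an adjusted p for 37 members, called Ccnd2 alone (adjusted p = 0.0130; 4.24% of all genes called), and limma-voom called no gene (0%). C59S libraries lay above all WT libraries for 4 members (Ccnd2, Mcm2, Mcm5, Mcm6; 11.2% of all genes) and below them for 4 (Ccne2, Ccnb2, Cenpf, Kif20a; 11.3% of all genes), close to the background in both directions. By library, the members' median difference from the WT mean was -0.061, 0.24 and 0.28 in C59S replicates 1 to 3, so replicate 1 did not share the shift. Without replicate 3 the median of the fit was 0.030, and without replicate 2 it was 0.14.

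Between the alleles, Ccnd2 was the member that passed: it was lower in C59A than in C59S. In that comparison edgeR called 1 of 39 members as lower, beside 2.56% of all genes, and 0 as higher, beside 3.35%. At an unadjusted p under 0.05 there were 3 members higher in C59A (Ccnb2, Nusap1, Cenpe) and 5 lower (Ccnd2, Rrm1, Ube2c, Ccnd3, Mcm3), 8 of 39 against 22.9% of all genes. DESeq2 called 5 members (Ccnd2, Rrm1 and Ube2c lower, Ccnb2 and Nusap1 higher; 10.3% of all genes called), and limma-voom called the same 5 with Ccnd3, also lower, as a sixth (10.3% of all genes called). C59A libraries lay above all C59S libraries for 5 members (Ccne2, Ccnb2, Nusap1, Cenpe, Cenpf; 14.7% of all genes) and below them for 7 (Ccnd2, Ccnd3, Mcm3, Mcm6, Rrm1, Ube2c, Kif20a; 14.5% of all genes). The median member difference was -0.16, with 13 above 0 and 26 below, against -0.0083 over all genes. The comparisons share libraries, so each set of values stands by itself.

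**Figure D2:**
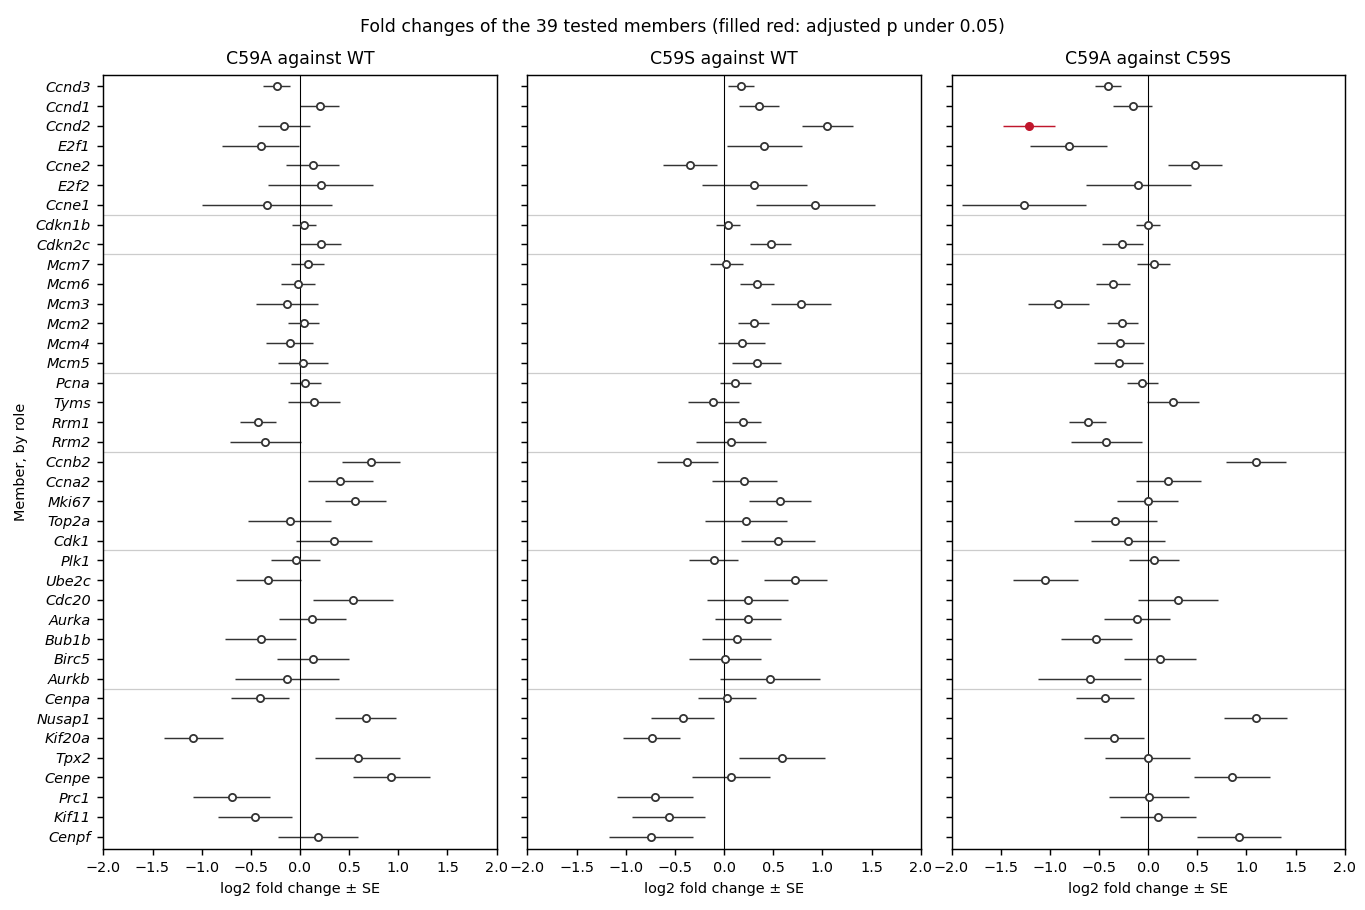
Log2 fold changes (± SE) of the 39 tested members in each of the 3 comparisons, by role, from edgeR fitted on all 9 libraries, with the sole adjusted p under 0.05 filled in red. Ccnd2 at -1.21 in C59A against C59S is the filled point, and Kif20a, Ccnb2, Nusap1, Ube2c and Ccnd3 stand away from 0 without passing.

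Among the G1 cyclins, Ccnd2 (cyclin D2; chromosome 6, 127125162 to 127152193, minus strand, GRCm38, from the deposited table) held 9.40, 8.05 and 12.3 CPM in WT replicates 1 to 3. C59A held 9.96, 8.27 and 8.30 CPM and C59S 14.3, 17.5 and 30.0 CPM. Every C59S library lay above every other library, and replicate 3 lay far above its own group. The C59A and C59S means were 8.84 ± 0.969 and 20.6 ± 8.33 CPM (SD, n = 3 each), a log2 difference of -1.21 ± 0.26 (SE; edgeR adjusted p = 0.0239). Against WT (9.90 ± 2.15 CPM), C59S stood 1.05 ± 0.26 higher on the log2 scale (adjusted p = 0.131) and C59A differed by -0.16 ± 0.26 (adjusted p = 0.786). With replicate numbers as pairs, which no label gives, a fit of the C59S and WT libraries alone put the C59S difference at 0.99 (edgeR adjusted p = 0.0363). Leaving out C59S replicate 3 moved the difference between the alleles to -0.85 (edgeR adjusted p = 0.0734) and that of C59S from WT to 0.68 (adjusted p = 0.478). Without WT replicate 3, the C59S difference from WT was 1.23 and passed (adjusted p = 0.0430). The adjusted p between the alleles was 0.0679, 0.0589 and 0.0991 without C59A replicate 1, 2 and 3, with differences of -1.29, -1.17 and -1.17.

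Summed markers of several non-tubular cell types were also highest in C59S replicate 3. Summed over 5 endothelial markers (Pecam1, Cdh5, Vwf, Emcn, Kdr), levels were 223, 138 and 311 CPM in WT, 227, 250 and 218 CPM in C59A, and 347, 381 and 533 CPM in C59S. All 5 were lower in every C59A library than in every C59S library, and 2 of the 5 passed the test as lower. Fibroblast and matrix markers (5 genes) summed to 144 to 297 CPM in WT, 193 to 351 CPM in C59A, and 209, 381 and 511 CPM in C59S, with none called. Adipocyte markers (4 genes) summed to 27.1 to 63.2 CPM in WT, 156 to 230 CPM in C59A, and 152, 562 and 1149 CPM in C59S, with none called between the alleles and 2 of the 4 at 0 reads in some library. Fabp4 alone held 62.9 CPM in WT replicate 1, 160 CPM in C59A replicate 2 and 149 CPM in C59S replicate 1. Adipoq, Cfd and Plin1 each stood at no more than 2.24 CPM in those libraries. Cfd reached 25.9 and 68.7 CPM in C59A replicates 1 and 3, and 158 and 429 CPM in C59S replicates 2 and 3. B and plasma cell markers (5 genes) stood at 127 CPM in C59S replicate 3 and at 14.0 to 56.8 CPM in the other libraries, with none called. T cell markers (5 genes) summed to 5.93 to 14.3 CPM in all libraries. Within C59S, Ccnd2 ranked the libraries in the same order as the endothelial, fibroblast, adipocyte, T cell and neutrophil sums. Macrophage, podocyte, erythroid, B and plasma cell, injured tubule and all tubule segment sums followed other orders. An order of 3 libraries is easily shared. Other markers also separated C59A from C59S. Podocyte markers (3 genes) summed to 183 to 303 CPM in C59A and 344 to 565 CPM in C59S, with Nphs1 called lower in C59A, while neutrophil markers (4 genes) summed to 13.5 to 16.1 CPM in C59A and 4.40 to 7.83 CPM in C59S, with 2 called higher in C59A. In each of the proximal tubule and distal convoluted tubule lists, 1 marker was also called between the alleles. The part of these cell types in the Ccnd2 difference was not tested. With the mitochondrial share as a covariate, the difference between the alleles was -1.03 (edgeR adjusted p = 0.0536) and that of C59S from WT 0.65 (adjusted p = 0.844).

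**Figure D3:**
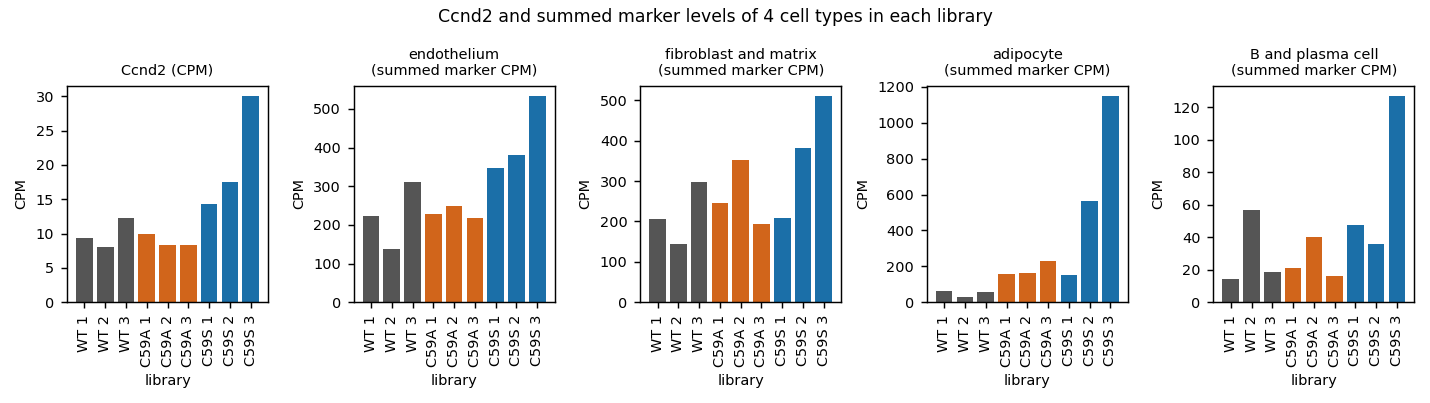
Level of Ccnd2 and summed marker levels of endothelium, fibroblast and matrix, adipocyte, and B and plasma cells in each library, as CPM on linear axes that start at 0. C59S replicate 3 is the highest library in all 5 panels, at 30.0 CPM for Ccnd2 and 533 CPM for the endothelial sum.

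Cyclins D3 and D1 were more abundant than Ccnd2 in FPKM, and neither passed in any comparison. Ccnd3 (cyclin D3) held 61.7, 78.2 and 76.2 CPM in WT, 60.7, 58.9 and 63.7 CPM in C59A, and 68.8, 88.5 and 86.4 CPM in C59S. All C59A libraries lay below all C59S libraries, while both groups overlapped WT, and the difference between the alleles was -0.41 ± 0.13 (SE; edgeR adjusted p = 0.0983). Ccnd1 (cyclin D1, a common mitogen-response gene) ran from 28.9 to 41.7 CPM in WT, 30.9 to 44.1 CPM in C59A and 32.4 to 50.7 CPM in C59S, and the 3 groups overlapped. E2f1, an activator E2F, ran from 2.47 to 3.39 CPM in WT, 1.08 to 3.48 CPM in C59A and 2.80 to 4.25 CPM in C59S. Ccne1 (3 to 34 reads a library), Ccne2 and E2f2 completed the group, with edgeR adjusted p-values of 0.264 to 0.938 over the 3 in C59A against C59S.

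The CDK inhibitors among the members did not pass in any comparison. Cdkn1b (p27, which restrains cyclin E with CDK2) held 45.8, 45.5 and 36.8 CPM in WT, 38.8, 46.1 and 46.6 CPM in C59A, and 41.6, 45.4 and 44.8 CPM in C59S. The groups overlapped, with log2 differences of 0.038 (C59A) and 0.041 (C59S) from WT and -0.0027 between the alleles. Cdkn2c (p18, an inhibitor of CDK4 and CDK6) ran from 9.73 to 16.3 CPM in WT, 12.4 to 16.6 CPM in C59A and 14.5 to 19.9 CPM in C59S. Its difference of C59S from WT was 0.47 ± 0.21 (SE; adjusted p = 0.264), and the groups overlapped.

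The 6 MCM subunits, which form the replicative helicase, were all above 0 in C59S against WT, from 0.023 (Mcm7) to 0.78 (Mcm3), and none was called. Their summed level was 52.5 ± 5.05 CPM in WT, 53.1 ± 4.47 CPM in C59A and 62.4 ± 3.98 CPM in C59S (SD, n = 3 each). Mcm3 held 4.51, 2.72 and 6.48 CPM in WT, 5.01, 4.02 and 3.53 CPM in C59A, and 6.27, 7.08 and 10.4 CPM in C59S. C59S lay above all C59A libraries for Mcm3 but overlapped WT, with a difference from WT of 0.78 ± 0.31 (SE; adjusted p = 0.225) and of C59A from C59S of -0.91 ± 0.31 (adjusted p = 0.113). Mcm2 ran from 9.70 to 11.1 CPM in C59S against 7.88 to 9.06 CPM in WT, and Mcm6 from 13.5 to 16.3 CPM against 9.58 to 13.4 CPM, each without overlap. Mcm5, from 2.65 to 3.24 CPM in C59S against 2.10 to 2.62 CPM in WT, did not overlap either. The gaps were narrow for Mcm5 and Mcm6. Their closest C59S and WT libraries stood at 2.65 and 2.62 CPM for Mcm5 and at 13.49 and 13.43 CPM for Mcm6 (edgeR adjusted p = 0.507 and 0.327). Mcm7, the most abundant subunit by FPKM, held 20.9, 16.2 and 25.4 CPM in WT, 24.3, 22.9 and 18.9 CPM in C59A, and 19.6, 21.2 and 22.8 CPM in C59S, so its groups overlapped in every comparison.

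Among genes of the replication clamp and nucleotide supply, Pcna held 21.3, 27.8 and 28.8 CPM in WT, 25.4, 26.7 and 28.9 CPM in C59A, and 23.4, 27.6 and 33.6 CPM in C59S. Its groups overlapped throughout. Rrm1 (large subunit of ribonucleotide reductase; chromosome 7, 102441695 to 102469771, plus strand) held 9.14, 9.91 and 11.5 CPM in WT, 6.58, 7.25 and 8.87 CPM in C59A, and 9.66, 11.6 and 13.8 CPM in C59S. C59A lay below every WT and every C59S library, with differences of -0.43 ± 0.19 from WT (SE; edgeR adjusted p = 0.220) and -0.62 ± 0.19 from C59S (adjusted p = 0.0792). Rrm2, the small subunit that pairs with Rrm1 in S phase, ran from 1.27 to 3.58 CPM, and Tyms (thymidylate synthase) from 8.73 to 17.8 CPM, both with overlapping groups.

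**Figure D4:**
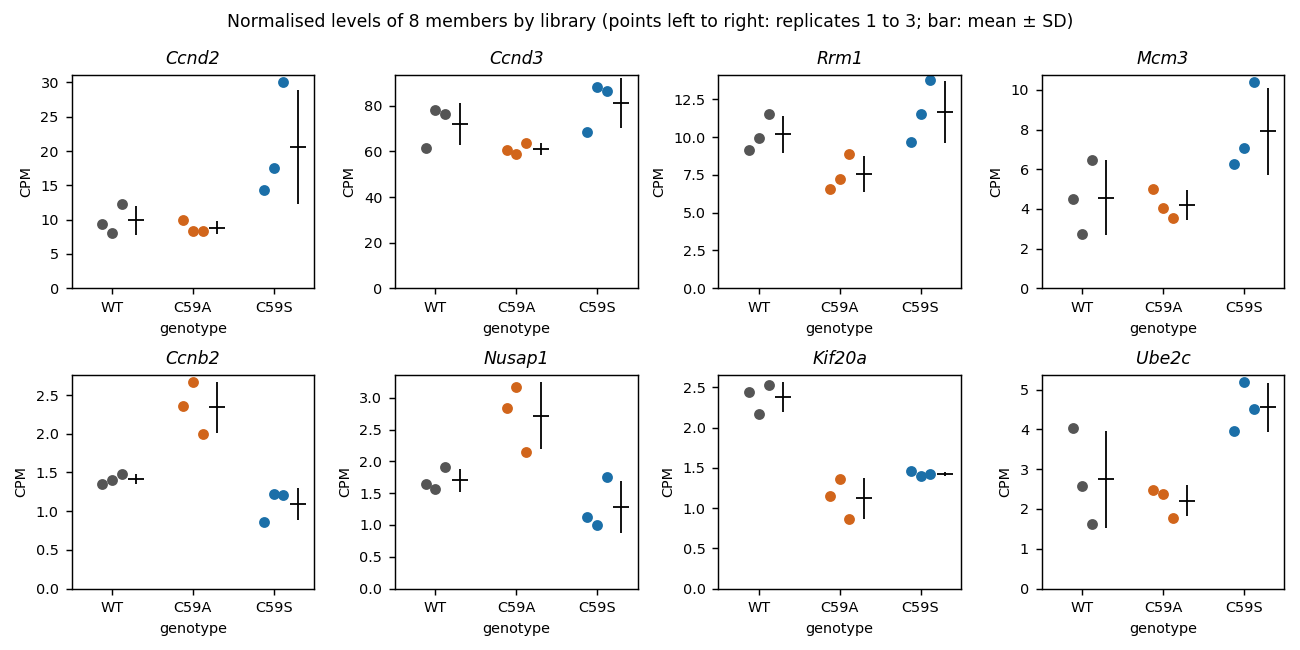
CPM of 8 members in each library (points from left to right: replicates 1 to 3; bar: mean ± SD, n = 3), on linear axes that start at 0. Kif20a is lower in both knock-in groups than in every WT library, Ccnb2 and Nusap1 are highest in C59A, and Ccnd2 is highest in C59S.

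The S, G2 and M cyclins with their kinase and markers were scarce, so counting error alone is large for them: for Ccnb2, with a mean of 31.9 reads a library, it is 17.7%. Ccnb2 (cyclin B2, a partner of CDK1; chromosome 9, 70407692 to 70421547, minus strand) held 1.35, 1.41 and 1.48 CPM in WT, 2.36, 2.66 and 2.00 CPM in C59A, and 0.858, 1.22 and 1.22 CPM in C59S. C59A was the highest and C59S the lowest group without overlap, with differences of C59A of 0.73 ± 0.30 from WT (SE; edgeR adjusted p = 0.188) and 1.10 ± 0.30 from C59S (adjusted p = 0.0567). The tables also list a copy, Ccnb2-ps, with 572 reads in all against 287 for Ccnb2, at 3.79, 3.02 and 3.39 CPM in WT, 2.60, 2.10 and 2.81 CPM in C59A, and 3.77, 3.02 and 2.97 CPM in C59S. Its levels were thus lowest in the group where Ccnb2 was highest. Summed, gene and copy held 5.14, 4.43 and 4.86 CPM in WT, 4.95, 4.76 and 4.82 CPM in C59A, and 4.63, 4.24 and 4.18 CPM in C59S. With the reads added together, the difference of C59A was 0.0087 from WT (adjusted p = 0.987) and 0.15 from C59S (adjusted p = 0.690), so the Ccnb2 difference depended on counting its reads apart from those of the copy.

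Mki67, the proliferation antigen Ki-67, held 3.16, 2.87 and 3.96 CPM in WT, 4.89, 6.12 and 3.77 CPM in C59A, and 2.91, 5.55 and 6.48 CPM in C59S. Both knock-in means lay above WT and both groups overlapped it, with log2 differences of 0.56 ± 0.31 (SE; adjusted p = 0.336) and 0.57 ± 0.31 (adjusted p = 0.361) against the same WT libraries. Top2a, the topoisomerase that untangles sister chromatids, ran from 1.08 to 4.18 CPM within C59S, wider than the 1.81 to 2.70 CPM of WT. Cdk1, the mitotic kinase, lay above WT (0.755 to 1.10 CPM) in all C59A libraries (1.19 to 1.30 CPM) and overlapped it in C59S (0.895 to 2.09 CPM), with differences of 0.34 ± 0.38 and 0.55 ± 0.38 (adjusted p = 0.664 and 0.469 in edgeR). Ccna2 (cyclin A2) overlapped in all 3 comparisons.

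Mitotic kinases, checkpoint genes and the ubiquitin machinery were led by Plk1 (Polo-like kinase), which held 4.26, 3.72 and 3.67 CPM in WT, 3.86, 4.65 and 2.81 CPM in C59A, and 3.77, 2.98 and 4.12 CPM in C59S. Its groups overlapped. Ube2c, the ubiquitin-conjugating enzyme that works with the anaphase-promoting complex (chromosome 2, 164769898 to 164778822, plus strand), held 4.04, 2.57 and 1.62 CPM in WT, 2.48, 2.38 and 1.76 CPM in C59A, and 3.96, 5.19 and 4.52 CPM in C59S. C59S lay above all C59A libraries and overlapped WT, with differences of 0.72 ± 0.32 from WT (SE; edgeR adjusted p = 0.267) and, for C59A against C59S, -1.05 ± 0.33 (adjusted p = 0.0879, or 0.0425 without WT replicate 3). Cdc20, the activator of that complex, Aurka and Aurkb (Aurora kinases), Bub1b (spindle checkpoint) and Birc5 (survivin) overlapped in all 3 comparisons. Their log2 differences ran from -0.60 (Aurkb, C59A against C59S) to 0.54 (Cdc20, C59A against WT).

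Among kinetochore, spindle and cytokinesis genes, Kif20a (a kinesin of the midzone in cytokinesis) held 2.44, 2.16 and 2.53 CPM in WT, 1.15, 1.36 and 0.858 CPM in C59A, and 1.46, 1.40 and 1.42 CPM in C59S. Every knock-in library of either allele lay below every WT library. The differences from the same WT libraries were -1.09 ± 0.30 for C59A (SE; edgeR adjusted p = 0.0550) and -0.74 ± 0.29 for C59S (adjusted p = 0.224). Kif20a shares part of its span with Cdc23, a subunit gene of the anaphase-promoting complex on the opposite strand that had 3811 reads in all against 306 for Kif20a. Cdc23 held 25.7, 26.3 and 20.6 CPM in WT, 20.0, 19.2 and 18.1 CPM in C59A, and 18.8, 19.5 and 17.5 CPM in C59S, also below WT without overlap (-0.35, adjusted p = 0.147, and -0.38, adjusted p = 0.182). The library kit named in the labels does not mark strand, so reads from the shared stretch of Kif20a and Cdc23 cannot be told apart. The same limit holds for the other members among the 11 whose span meets a gene on the opposite strand: Ccnd1, Ccnd2, Ccnd3, Ccne2, Mcm7, Ccna2, Plk1, Cdc20, Nusap1 and Prc1. For Cdc20 the opposite gene, Elovl1, had 12005 reads against 285, and for Ccne2, Ints8 had 3736 against 365, while for Ccnd2 the opposite gene had 13 reads against 2340.

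Nusap1 (a microtubule-binding protein of the spindle; chromosome 2, 119618298 to 119651244, plus strand) held 1.64, 1.56 and 1.91 CPM in WT, 2.84, 3.17 and 2.15 CPM in C59A, and 1.12, 0.993 and 1.75 CPM in C59S. C59A lay above both other groups, which overlapped each other, with differences of 0.67 ± 0.31 from WT (SE; edgeR adjusted p = 0.245) and 1.09 ± 0.32 from C59S (adjusted p = 0.0688). Cenpe, the kinetochore motor, held 0.885, 1.91 and 1.14 CPM in WT, 1.57, 3.63 and 2.29 CPM in C59A, and 1.31, 1.35 and 1.49 CPM in C59S. C59A lay above C59S but overlapped WT, and its difference of 0.93 ± 0.39 from WT (adjusted p = 0.198) had replicate 2 as its highest library. Cenpa, the centromeric histone, held 4.80, 4.53 and 5.15 CPM in WT, 3.62, 4.59 and 2.72 CPM in C59A, and 3.02, 5.59 and 6.28 CPM in C59S, with overlap throughout. Cenpf ran from 0.472 to 0.709 CPM in C59S, below WT (0.811 to 1.21 CPM) and C59A (0.785 to 1.70 CPM), on 7 to 30 reads a library. Prc1 and Kif11 had differences of -0.70 and -0.46 in C59A and -0.71 and -0.56 in C59S against the shared WT libraries, and Tpx2 had 0.59 in both, all with overlapping groups and adjusted p-values of 0.343 to 0.531.

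Summed over the 22 members that serve S, G2 and M phase from cyclin A and B on, levels were 41.0, 38.1 and 37.9 CPM in WT, 41.1, 49.4 and 34.8 CPM in C59A, and 31.9, 44.8 and 49.1 CPM in C59S. The group means of 39.0 ± 1.76, 41.7 ± 7.32 and 42.0 ± 8.94 CPM (SD, n = 3 each) differed by less than the spread within either knock-in group. Of the 20 tested genes of that set, 7 were highest in C59A replicate 2 and 4 in C59S replicate 3. Of all 39 tested members, 7 and 13 were. The shares of all tested genes that were highest in these libraries are not given, so these counts have no background beside them. Over all 41 members the sums were 320 ± 19.5 CPM in WT, 319 ± 13.4 CPM in C59A and 373 ± 39.0 CPM in C59S. The G1 and S phase cyclins with E2f1 and E2f2 gave 123 ± 13.7, 116 ± 6.98 and 153 ± 13.6 CPM of these sums (SD, n = 3 each).

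A wider list of 115 cell cycle genes outside the 41, of which 103 were tested, set these results in context. In C59A against WT, 4 were called higher and 1 lower, shares near or below those over all genes (3.24% and 2.46%). Those higher were Rrm2b (0.83, adjusted p = 0.00413), the p53-induced subunit of ribonucleotide reductase, Gadd45a (0.50, adjusted p = 0.0268) and Ccng1 (0.66, adjusted p = 0.0368), both p53 targets, and Cks2 (0.69, adjusted p = 0.0416), a CDK partner. The gene called lower was Cdk2 (-0.64, adjusted p = 0.0457). The list of 10 p53 arrest genes as a whole went both ways, with a median of 0.060. At an unadjusted p under 0.05 in edgeR, 3 were higher: the 2 called, Gadd45a and Ccng1, and Phlda3 (0.72), which was not called. The 4 lower, Gadd45g (-1.03), Btg2 (-0.72), Sesn2 (-0.62) and Sesn1 (-0.43), were not called. Of the 4 tested CDK inhibitors on the wider list, 2 were above 0 and 2 below, with Cdkn1a at 0.79 (edgeR adjusted p = 0.109). In C59S against WT none was called by edgeR, with 6 higher and 2 lower at an unadjusted p under 0.05, fewer for their number than the 18.1% of all genes. The smallest p-values there belonged to Tk1 (-0.69), Phlda3 (1.26), both at an adjusted p of 0.121, and Rrm2b (0.51, adjusted p = 0.139). Between the alleles, 2 of the 103 were called higher in C59A and 1 lower, shares below those over all genes (3.35% and 2.56%). Those higher were Mcm10 (0.97, adjusted p = 0.0309), a replication initiation factor, and Cks2 (0.67, adjusted p = 0.0457). Cdkn1c (p57, a CDK inhibitor) was lower in C59A at -1.11 (adjusted p = 0.0113), from 42.2 to 57.3 CPM against 83.7 to 131 CPM in C59S. Like Ccnd2, Cdkn1c was highest in C59S replicate 3. Podocyte and endothelial marker sums were also lower in every C59A library than in every C59S library. The part of these cell types in the Cdkn1c difference was not tested.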

How the data were processed

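Total kidney RNA was made into libraries with a NEBNext Ultra RNA kit, per the labels' protocols. The submitters' processing notes name the build GRCm38 and the tools featureCounts 1.5.0-p3, HISAT2 2.0.5, fastp, CASAVA 1.8 and DESeq2 1.20.0; the strand setting is not given in the sources used here. The authors deposited whole-number read counts per gene and FPKM values. Genes were tested with edgeR 4.0.16 (TMM, filterByExpr, robust quasi-likelihood fit of all 9 libraries in R 4.3.3), with Benjamini-Hochberg adjustment over all 17114 genes and a threshold of 0.05. CPM are counts scaled to the TMM-adjusted totals of the tested genes, with a floor of 3 counts at 0.112 to 0.202 CPM, and SE is the size of the log2 difference over the square root of F. Counting error, given as a percent, is the inverse square root of the mean count. Alternatives were other scalings and filters, DESeq2 1.42.0, limma 3.58.1 (voom, and log2 of the deposited FPKM plus a pseudocount of 1 or 0.1), a mitochondrial covariate, replicate blocks and left-out libraries. No replicate pair agreed within sampling noise (chi-square per degree of freedom 22.4 to 123).

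Deviations of same-numbered libraries from their group means correlated at 0.378, 0.203 and 0.270 between C59S and WT. These groups were taken as paired on that ground alone, as no label pairs them. The values were 0.0442, -0.126 and 0.0237 between C59A and WT and -0.0947, -0.328 and 0.0548 between C59A and C59S, which were not paired. Unlike-numbered libraries reached at most 0.057 between C59S and WT, but 0.328 for C59A replicate 2 with C59S replicate 1, so such values do not establish pairs.

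The members and gene lists were chosen with earlier results of these data known. Values in every library are given for members called or with the 3 smallest p-values of a comparison and for the leader by FPKM of each role. Rrm1, Ube2c, Ccnd3, Mki67, Cdkn2c, Cdkn1a, Cdc23, Ccnb2-ps, the p53 genes not called, and the library values of other members, the printed promoters and the motif letters were chosen after values were seen. An earlier motif scan also held 1 more E2F form and took the CHR forms apart. The tests across genes were checked on simulated counts. Gene positions come from the deposited table.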

Additional observations from a re-analysis of the deposited data

How the results depend on the processing

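Over 27 alternatives, 460 of 501 recomputed differences of the named members kept their direction and their side of the threshold, 10 lost a call, all of Ccnd2 in C59A against C59S, 30 gained one and 1 reversed: Ccnd2 in C59A against WT was 0.021 without WT replicate 3, and -0.29 at the other end with a library left out. The Ccnd2 difference between the alleles ranged from -1.42 to -0.68. Its adjusted p was 0.0727, 0.0630 and 0.173 in the FPKM fits (pseudocount 1, 0.1, and 1 with no filter), 0.0536 with the mitochondrial share as covariate and 0.0895 with a replicate block on these groups alone.

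In C59A against WT, 1 member was lower with library totals alone, with a filter of 1 CPM in 3 libraries, with DESeq2, with voom and at an adjusted p under 0.1. In C59S against WT, 1 was higher with no filter, DESeq2 or the replicate block on these groups, and 0 to 1 with a library left out. In C59A against C59S, 1 was higher with the 1 CPM filter and in both filtered FPKM fits, and 2 with DESeq2, voom or an adjusted p under 0.1. There, 2 were lower with no filter, with a replicate block on all 9 libraries or with these groups alone, 3 with DESeq2, 4 with voom or an adjusted p under 0.1, 0 in the FPKM fits, with the mitochondrial covariate and with the replicate block on these groups alone, and 0 to 2 with a library left out. Leaving out C59S replicate 3 and WT replicate 2 together, chosen after seeing the data, left 0 lower and a C59S median of 0.050; adding Ccnb2-ps reads to Ccnb2 was also chosen then. Over all genes, the calls were 975 (C59A against WT), 0 (C59S against WT) and 1012 with edgeR, and 1622, 670 and 1765 with DESeq2.

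With library totals alone the members' median was -0.20 in C59A and -0.026 in C59S against WT, where the median of all genes moved to -0.26 and -0.19, so relative to all genes both stayed above 0. The C59S median was 0.027 with the mitochondrial covariate and 0.030 to 0.28 with a library left out, and the C59A median -0.090 to 0.091. The cause of these changes was not tested. Most mitosis members averaged fewer than 60 reads a library, so counting error adds to the spread between libraries in their values.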
